A study of Mus musculus with 6 samples.

Results

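Transcripts of 10 plasma proteins, *Alb*, *Ttr*, *Trf*, *Hp*, *Serpina3n*, *Apoa1*, *Apoa2*, *Apoc1*, *Apod* and *Apoe*, were followed in inguinal white adipose tissue (iWAT) of Wt and mutant mice. They are the rows whose gene symbol equals a listed name, 10 of the 55573 genes in the deposited values. The genes were chosen by name as liver-type plasma proteins that had been seen in these fat libraries, with earlier results known, so their detection is a description and no finding.

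The mutant mice carried a homozygous THRA K283Q/K288R knock-in in every tissue, which removes SUMO conjugation sites of the thyroid hormone receptor alpha. Both genotypes were untreated C57BL/6NTac males on regular chow, 3 months old, with 3 mice and 1 library per mouse for each genotype. The mutation was introduced in embryonic stem cells of this strain, and the Wt controls were bred in-house from the same strain. The question addressed by the comparison is which transcripts of this subcutaneous fat depot differ with the receptor mutation.

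Most of these proteins are made by hepatocytes and secreted into blood. Albumin is the main protein of plasma and carries fatty acids and thyroid hormone, transthyretin (*Ttr*) carries thyroxine and retinol-binding protein, transferrin (*Trf*) carries iron, and haptoglobin (*Hp*) captures free hemoglobin. Apolipoproteins coat lipoprotein particles and direct them to receptors and enzymes. Haptoglobin, apolipoprotein E and apolipoprotein D are also known as products of adipose tissue, its adipocytes, macrophages or fibroblasts.

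Promoter windows of 6 of the 10 genes were taken from a RefSeq set (GRCm38.p6, the build mm10 of the deposited files). The set used here held none for *Trf*, *Hp* and *Apoc1*, and *Ttr* was not searched. The 250 bases before the start are shown for *Alb* and *Apod*, whose transcripts passed the test for a genotype difference, and for *Apoe*, which had the highest level per kilobase in the mean of 6 mice. They lie at chr5:90460620-90460869 on the plus strand, chr16:31314809-31315058 on the minus strand and chr7:19699189-19699438 on the minus strand, respectively. All are written 5′ to 3′ in the direction of transcription. Capitals mark matches of TTNNNNGAA, a loose pattern that includes STAT sites, and of GTTAAT, the core of the site of hepatocyte nuclear factor 1.
Alb: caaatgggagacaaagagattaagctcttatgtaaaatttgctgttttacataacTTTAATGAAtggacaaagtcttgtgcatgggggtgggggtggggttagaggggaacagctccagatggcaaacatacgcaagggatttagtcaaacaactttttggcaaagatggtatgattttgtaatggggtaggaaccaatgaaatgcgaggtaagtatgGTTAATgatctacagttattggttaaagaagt
Apod: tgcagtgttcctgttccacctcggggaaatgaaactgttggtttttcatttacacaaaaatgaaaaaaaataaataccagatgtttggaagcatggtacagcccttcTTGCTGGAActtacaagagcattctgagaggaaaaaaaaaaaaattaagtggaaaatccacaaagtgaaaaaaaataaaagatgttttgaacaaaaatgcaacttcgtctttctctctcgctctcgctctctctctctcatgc
Apoe: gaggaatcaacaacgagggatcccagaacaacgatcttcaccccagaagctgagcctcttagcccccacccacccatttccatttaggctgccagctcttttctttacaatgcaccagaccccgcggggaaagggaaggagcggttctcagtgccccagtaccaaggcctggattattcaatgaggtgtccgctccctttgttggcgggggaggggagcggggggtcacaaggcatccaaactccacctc

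Counted from the start, the *Alb* window held TTNNNNGAA at -195 and GTTAAT at -32, and the *Apod* window held TTNNNNGAA at -143. This RefSeq start of *Alb* lies 27 bases before the GENCODE gene start given below, while the starts of *Apod* and *Apoe* are the same in both. Among the other windows, TTNNNNGAA was at -123 in *Serpina3n*, and TGACG, part of the cAMP response element, was at -23 in *Apoa2*. The *Apoa1* and *Apoe* windows held none of the 5 motifs, which were AGGTCA (the core bound by nuclear receptors, thyroid hormone receptors among them), TGACGTCA (the full cAMP response element), TGACG, TTNNNNGAA and GTTAAT. Both strands were searched, and TGACG also matches within TGACGTCA. Of 32817 windows of 300 bases in the table, 16.3% held AGGTCA, 1.79% TGACGTCA, 20.8% TGACG, 38.0% TTNNNNGAA and 7.10% GTTAAT. The matches describe letters in these windows only.

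The libraries held 19607423 to 24228381 reads on genes, and 3 reads corresponded to a value of 0.126 to 0.157. Values are normalized CPM, reads divided by a library size that the authors scaled for each mouse. With limma on log2(value + 0.5), 1368 of 16868 genes tested passed an FDR of 0.05, or 8.11%, with 928 higher (5.5%) and 440 lower (2.61%) in mutant mice. Under scaling by library size only, 1019 were higher and 265 lower. *Thra* itself, the mutated gene, had 147, 128 and 117 in Wt mice against 170, 140 and 137 in mutant mice (adjusted p = 0.404, limma), so its level does not check the labels, and the altered codons cannot be read from gene values. Some libraries stood apart. Lymphocyte markers (6 genes) summed to 3.25 in mutant mouse 1 and to 250 to 608 in the other mice, while epithelial markers (6 genes) summed to 75.8 in Wt mouse 1 and to 3.79 to 23.1 in the others.

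Adipocyte markers (8 genes, none past the test) had a mean log2(value + 0.5) of 10.51 to 11.03 in Wt and 10.27 to 10.88 in mutant mice, so the labelled tissue was represented in all 6 libraries. Mesothelial markers were higher in mutant mice in 7 of 8 genes, beside 5.5% of all genes tested. Their mean log2 level was 0.05 to 0.57 in Wt and 2.35 to 3.21 in mutant mice, with sums of 8.32 to 34.0 and 42.8 to 85.7 normalized CPM. The remaining gene, *Krt19*, had 28.5, 2.72 and 2.94 in Wt mice against 8.86, 3.95 and 4.91 in mutant mice. It made most of the sum of 34.0 in Wt mouse 1. Of the genes that define mesothelium, *Upk3b* and *Upk1b* had 0 reads in Wt mouse 2. These 2 as well as *Msln* and *Wt1* passed the filter on low values only through mutant mice. Skeletal muscle markers had a mean log2 level of 8.56 to 9.90 in Wt and 10.53 to 11.11 in mutant mice, with sums of 5345 to 11090 and 11581 to 17374. Among these, 1 of 6, *Myh1*, passed the test and was higher, beside 5.5% of all genes tested. Of 8 macrophage markers, 1 was lower (*C1qa*), beside 2.61% of all genes tested. With limma and with edgeR no gene of the adipocyte, fibroblast (8), endothelial (6), Schwann cell (7), epithelial or lymphocyte lists passed, while 1, 3, 2, 1, 1 and 0 of them, in this order, had an unadjusted p under 0.05 and 2, 2, 1, 1, 1 and 0 passed with DESeq2. Of all genes tested, 8.11% passed with limma. Of the 8 fibroblast and preadipocyte markers, 7 had a positive log2 fold change. Their mean log2 level overlapped between genotypes, at 7.96 to 8.03 in Wt and 8.01 to 8.21 in mutant mice. In whole tissue, fewer cells of a type and less RNA per cell cannot be told apart.

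**Figure D1:**
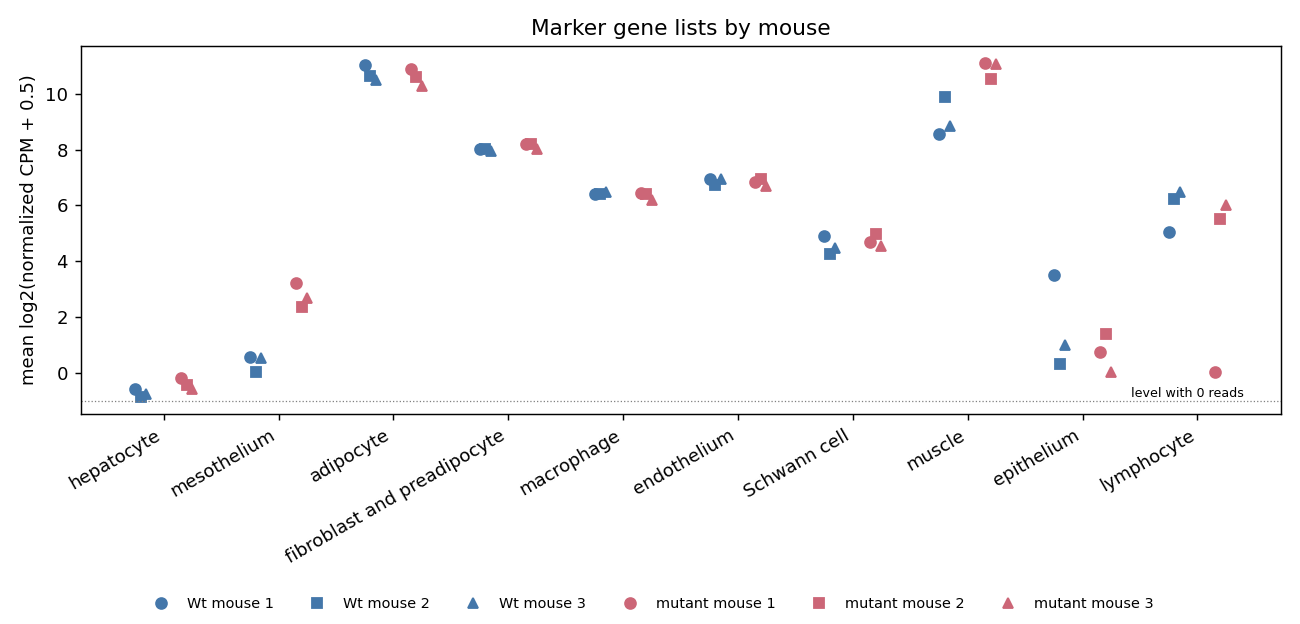
Mean log2(normalized CPM + 0.5) of 10 marker gene lists, 1 symbol per mouse, with Wt in blue and mutant in red; the dotted line is the level of a list with 0 reads. Mesothelial and muscle lists lie higher in the 3 mutant mice, the lymphocyte list is near 0 in mutant mouse 1 (0.02), and the hepatocyte list stays near the dotted line in all 6 mice.

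Hepatocyte markers were at trace levels. None of the 17 listed genes had enough reads to be tested. *Hnf4a*, a transcription factor that defines hepatocytes, had 0, 1 and 2 reads in Wt and 0, 1 and 0 reads in mutant mice, and *Cps1*, a urea cycle enzyme, had at most 3 reads in any mouse. The 17 markers summed to 0.973 to 8.21 in Wt and 3.37 to 7.18 in mutant mice, and in Wt mouse 1 the sum was mostly *Fgg* (fibrinogen gamma, 6.75). The sums of all 17 markers thus overlapped between genotypes. Their mean log2(value + 0.5) was -0.859 to -0.574 in Wt and -0.573 to -0.195 in mutant mice, so on that scale the genotypes barely missed overlapping. Without *Fgg*, an omission that was not planned, the sums were 0.778 to 1.47 in Wt and 3.37 to 6.29 in mutant mice, without overlap. The part of these transcripts, of mesothelial RNA, of muscle RNA and of fibroblast RNA in the differences given next was not tested.

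Per kilobase of exon, the 10 transcripts spanned from among the most abundant of the tissue to a few reads. *Apoe* had a mean level over 6 mice of 1277 per kb and ranked 19 of 55480 genes, *Hp* had 909 and ranked 25, and *Serpina3n* had 158 and ranked 158. *Apoc1* had 64.6, *Apod* 37.9, *Alb* 15.2 and *Trf* 7.97 per kb. *Apoa2*, *Apoa1* and *Ttr* had 0.798, 0.287 and 0.212 per kb. The order of neighbours was not fixed everywhere: *Hp* lay above *Apoe* in 2 of 6 mice, mutant mice 1 and 2, *Trf* above *Alb* in 1 mouse and *Ttr* above *Apoa1* in 2 mice, and Wt mouse 2 had 0 reads for both of the last pair. In mutant mice the mean per kb was 1171 for *Hp* and 1150 for *Apoe*, and in Wt mice 646 and 1404. The other neighbours kept their order in every mouse, although the ranges over mice of *Apoc1* and *Apod*, of *Apod* and *Alb* and of *Apoa2* and *Apoa1* overlapped. Lengths counted every base in any annotated exon of a gene, 2138 for *Apoe* and 1606 for *Hp*, rather than those of a single transcript. The exchange of *Hp* and *Apoe* depends on these lengths. Before division, *Apoe* lay above *Hp* in every mouse, with 2679 and 2579 against 2275 and 2025 normalized CPM in mutant mice 1 and 2.

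**Figure D2:**
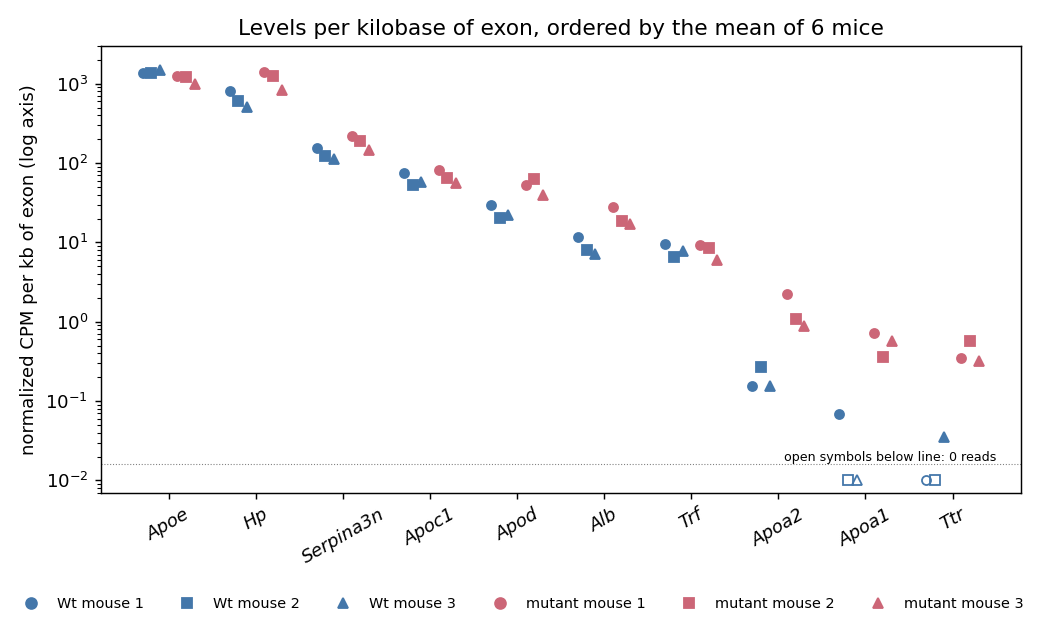
Normalized CPM per kilobase of exon (log axis) of the 10 transcripts, ordered by the mean of 6 mice, with Wt mice in blue and mutant mice in red and open symbols for 0 reads. *Apoe* (mean 1277) and *Hp* (909) lie highest, and *Apoa2*, *Apoa1* and *Ttr* reach at most 2.24 in any mouse.

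Of the 10 genes, 8 passed the filter on low values and 2, *Apoa1* and *Ttr*, did not. *Apoa2* passed only through its values in mutant mice. Among the 8 tested, 2 passed an FDR of 0.05, *Alb* and *Apod*, both higher in mutant mice, beside 8.11% of all genes tested. The median log2 fold change was 0.68 for the 8 and -0.05 over all genes tested. Every mutant mouse lay above every Wt mouse for 4 of the 8 (*Alb*, *Hp*, *Apoa2* and *Apod*), beside 14.9% of all genes tested, and also for *Apoa1* and *Ttr*. *Apoe* alone lay lower in every mutant mouse, as did 15.7% of all genes tested. As the genes were chosen with results known, these counts are a description of the named genes. The study also lists *Alb* and *Apod*, with *Agt* and *Kng1*, in its own pathway analysis of these libraries. The pathway is named activation of the liver X receptor and RXR there and has a positive z-score, but its p-value in that analysis is not under 0.05. In the list of the liver X receptor, its partners and its targets described below, which holds other genes, 3 genes fell and none rose. As it rests on the same libraries, that analysis is not independent evidence of their direction.

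**Figure D3:**
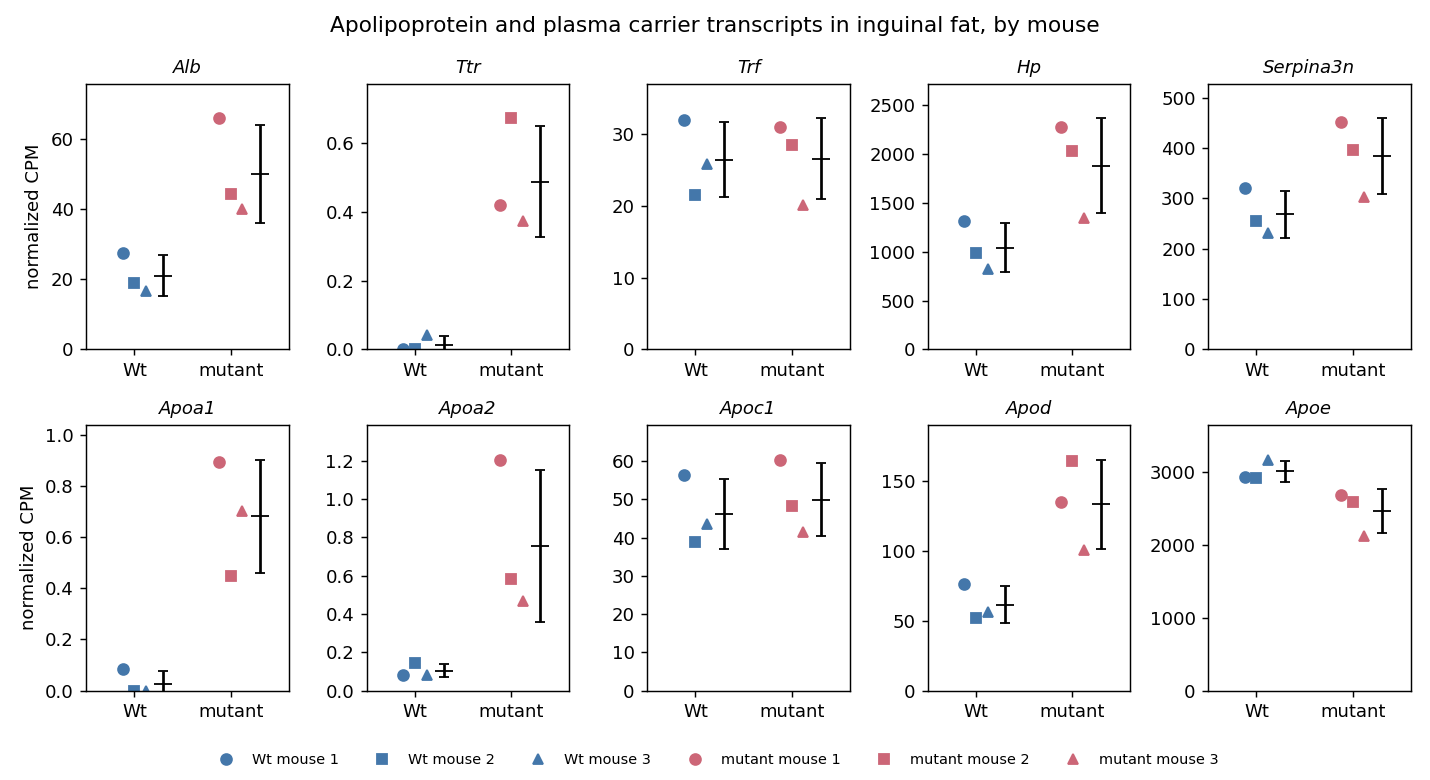
Normalized CPM of each transcript by mouse (linear axes from 0, a scale of its own per gene), with Wt mice in blue and mutant mice in red; black bars are the mean ± SD of 3 mice, drawn down to 0 where they would pass below it. *Alb*, *Apod*, *Hp*, *Apoa1*, *Apoa2* and *Ttr* do not overlap and lie higher in mutant mice, *Apoe* does not overlap and lies lower, and *Trf*, *Apoc1* and *Serpina3n* overlap.

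The thyroid hormone carriers were *Alb* and *Ttr*. *Alb* (ENSMUSG00000029368, chr5:90460897-90476602, plus strand) had 27.7, 19.0 and 16.6 normalized CPM in Wt mice 1, 2 and 3, against 66.0, 44.2 and 40.1 in mutant mice 1, 2 and 3. The lowest mutant mouse was 1.45 times the highest Wt mouse, which is Wt mouse 1. The mean was 21.1 ± 5.83 in Wt and 50.1 ± 13.9 in mutant mice (SD, n = 3 each), a ratio of 2.38. The log2 fold change was 1.23 ± 0.25 (SE, adjusted p = 0.0346, limma). These values rest on 390 to 660 reads per Wt mouse and 857 to 1259 reads per mutant mouse. *Alb* no longer passed without Wt mouse 2 (adjusted p = 0.131, limma), Wt mouse 3 (0.116), mutant mouse 2 (0.101) or mutant mouse 3 (0.0579), while without mutant mouse 1, the library with few lymphocyte transcripts, the log2 fold change was 1.02 (adjusted p = 0.0443).

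*Ttr* (ENSMUSG00000061808, chromosome 18) had 0, 0 and 1 reads in Wt mice against 8, 15 and 8 reads in mutant mice. In normalized CPM this is 0, 0 and 0.0421 against 0.419, 0.673 and 0.374. The summed reads, 31 against 1, gave a ratio of 33.7 scaled for depth, with a 95% interval of 5.62 to 1373 that covers counting error only. *Alb* exceeded *Ttr* 79.7, 33.3 and 54.2 times per kilobase of exon in mutant mice 1, 2 and 3. Thyroxine-binding globulin (*Serpina7*), another thyroid hormone carrier of plasma, had 0 reads in all 6 mice. *Serpina6*, the plasma carrier of glucocorticoids, had 2 reads in mutant mouse 1 and 0 in the others.

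*Trf* and *Hp* bind iron and hemoglobin. *Trf* (ENSMUSG00000032554, chr9:103204001-103230444, minus strand) had 31.9, 21.5 and 25.8 in Wt mice against 31.0, 28.5 and 20.2 in mutant mice. The genotypes covered the same range, with a mean of 26.4 ± 5.20 in Wt and 26.5 ± 5.65 in mutant mice (SD, n = 3 each). Their log2 difference was 0.00 ± 0.21 (SE, adjusted p = 0.997, limma). *Trf* shares 2108 exonic bases on the same strand with the gene model *Gm20425*, which is listed at 0, so reads of the overlap appear under *Trf* alone.

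*Hp* (ENSMUSG00000031722, chr8:109575128-109579172, minus strand) had 1313, 982 and 820 in Wt mice against 2275, 2025 and 1342 in mutant mice. The genotypes did not overlap, but by a narrow margin, as the lowest mutant mouse was 1.02 times the highest Wt mouse. The mean was 1038 ± 251 in Wt and 1881 ± 483 in mutant mice (SD, n = 3 each), a ratio of 1.81. The log2 fold change was 0.85 ± 0.27 (SE), which did not pass the test (adjusted p = 0.119, limma). *Hp* passed with the Wald test of DESeq2 (adjusted p = 0.00547).

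*Serpina3n*, a secreted inhibitor of serine proteases that is induced in the acute phase, had 321, 255 and 231 in Wt mice against 452, 397 and 303 in mutant mice (ENSMUSG00000021091, chr12:104406729-104414329, plus strand). Mutant mouse 3 lay below Wt mouse 1, so the genotypes overlapped. The mean was 269 ± 46.8 in Wt and 384 ± 75.4 in mutant mice (SD, n = 3 each), with a log2 fold change of 0.51 ± 0.19 (SE, adjusted p = 0.167, limma). The *Serpina3* genes are close copies of one another, and how the counting divided their shared reads was not tested. Per kilobase of exon, the ratio of *Hp* to *Serpina3n* within a mouse was 5.26, 4.95 and 4.57 in Wt and 6.47, 6.56 and 5.70 in mutant mice.

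*Apoa1* and *Apoa2* encode the main proteins of high density lipoprotein. *Apoa1* (ENSMUSG00000032083, chr9:46228580-46230466, plus strand) had 2, 0 and 0 reads in Wt mice against 17, 10 and 15 reads in mutant mice. The summed reads, 42 against 2, gave a ratio of 22.8 scaled for depth (95% counting interval 5.94 to 195). *Apoa2* (ENSMUSG00000005681, chr1:171225054-171226379, plus strand) had 2, 3 and 2 reads in Wt and 23, 13 and 10 reads in mutant mice, or 0.0838, 0.146 and 0.0841 against 1.21, 0.583 and 0.468 in normalized CPM. The summed reads, 46 against 7, gave a ratio of 7.14 (95% counting interval 3.20 to 18.8). Both genes were higher in every mutant mouse, at levels where single reads matter.

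On the log2(value + 0.5) scale, which understates the change of so low a gene, *Apoa2* differed by 1.01 ± 0.24 (SE, adjusted p = 0.0555, limma) and did not pass. With a pseudocount of 0.1 the difference was 1.98 (adjusted p = 0.036, limma), and with the quasi-likelihood test of edgeR on the recovered reads it was 2.79 (adjusted p = 0.0331). *Apoa2* also passed under scaling by library size only (adjusted p = 0.0435, limma) and with DESeq2 (0.0139). With limma it did not pass with a pseudocount of 1 (adjusted p = 0.073), with the size factors of DESeq2 (0.0519), with TMM (0.0536), without the filter (0.0537) or without any 1 mouse (0.0672 to 0.178).

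*Apoc1*, a small apolipoprotein of triglyceride-rich particles and high density lipoprotein, had 56.4, 38.9 and 43.4 in Wt mice against 60.4, 48.1 and 41.3 in mutant mice (ENSMUSG00000040564, chr7:19689481-19692660, minus strand). The genotypes overlapped, with a mean of 46.2 ± 9.10 in Wt and 49.9 ± 9.66 in mutant mice (SD, n = 3 each). Its log2 fold change was 0.11 ± 0.19 (SE, adjusted p = 0.735, limma).

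*Apod*, a lipocalin that binds arachidonic acid and other small lipids and is not related in sequence to the exchangeable apolipoproteins, had 76.5, 51.8 and 56.4 in Wt mice against 135, 165 and 101 in mutant mice (ENSMUSG00000022548, chr16:31296192-31314808, minus strand). The lowest mutant mouse, mouse 3, was 1.32 times the highest Wt mouse. The mean was 61.6 ± 13.1 in Wt and 134 ± 31.8 in mutant mice (SD, n = 3 each), a ratio of 2.17. The log2 fold change was 1.10 ± 0.22 (SE, adjusted p = 0.0315, limma), on 1065 to 1825 reads per Wt mouse and 2157 to 3667 reads per mutant mouse. *Apod* no longer passed without Wt mouse 2 (adjusted p = 0.122, limma), Wt mouse 3 (0.115), mutant mouse 1 (0.0558) or mutant mouse 2 (0.1004). The ratio of *Alb* to *Apod* per kilobase overlapped between genotypes, at 0.398, 0.403 and 0.323 in Wt and 0.537, 0.296 and 0.437 in mutant mice.

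*Apoe*, the ligand by which cells take up lipoprotein remnants, had 2920, 2919 and 3165 in Wt mice against 2679, 2579 and 2121 in mutant mice (ENSMUSG00000002985, chr7:19696109-19699188, minus strand). Every mutant mouse lay below every Wt mouse. The mean was 3001 ± 141 in Wt and 2460 ± 297 in mutant mice (SD, n = 3 each), a ratio of 0.82. The log2 fold change was -0.29 ± 0.21 (SE), which did not pass the test (adjusted p = 0.419, limma). Among Wt mice *Apoe* had a coefficient of variation of 4.71%, compared with 17.4% to 27.7% for the other 6 genes above 10 normalized CPM.

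**Figure D4:**
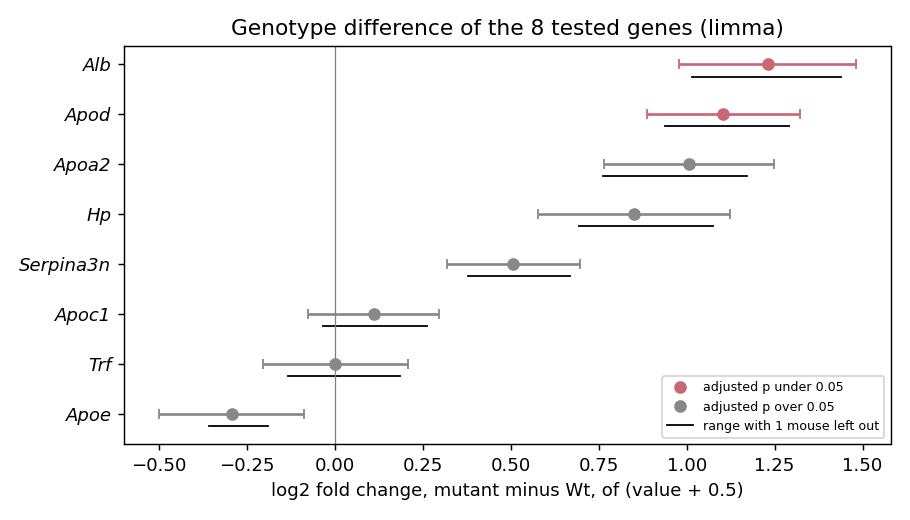
Log2 fold change (mutant minus Wt, of value + 0.5) ± SE of the 8 tested genes, with the range obtained when any 1 mouse is left out as a black line below each point. *Alb* (1.23) and *Apod* (1.10) passed an FDR of 0.05 and are drawn in red; the lines of *Trf* and *Apoc1* cross 0.

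*Apoe* and *Apoc1* are neighbours in a cluster on chromosome 7, with 3448 bases between them. *Apoc4* and *Apoc2*, the next genes of the cluster, had at most 3 reads in any mouse and 0 reads in all 6 mice, respectively. Per kilobase of exon, the ratio of *Apoe* to *Apoc1* within a mouse was 18.02, 26.1 and 25.4 in Wt and 15.4, 18.7 and 17.9 in mutant mice, so Wt mouse 1 lay among the mutant mice. *Apoa1* lies 2466 bases from *Apoc3*, which had 1, 0 and 3 reads in Wt and 22, 9 and 13 reads in mutant mice, a ratio of 12.0 (95% counting interval 4.35 to 45.8). *Apoa4*, the next gene, had 1, 3 and 2 reads in Wt and 0, 1 and 3 in mutant mice, and *Apoa5* had 2 reads in mutant mouse 1 and 0 in the others. *Apoa1* and *Apoc3* thus both had more reads in every mutant mouse than in any Wt mouse, and *Apoa4* did not.

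Other liver-type transcripts were also at trace levels. *Ahsg* (fetuin-A) had 0, 1 and 4 reads in Wt and 13, 8 and 11 in mutant mice, a ratio of 6.96 (95% counting interval 2.69 to 22.9). *Apoh* and *Gc* (vitamin D-binding protein), chosen after their values were seen, had 3 reads each over the Wt mice against 26 and 23 over the mutant mice, ratios of 9.42 (2.89 to 48.6) and 8.33 (2.52 to 43.4). *Apob*, needed for very low density lipoprotein, had 0, 0 and 1 reads in Wt and 5, 2 and 3 in mutant mice. *Fga*, the fibrinogen alpha chain, had 0, 0 and 2 reads in Wt and 12, 4 and 1 in mutant mice, with overlap, and *Fgb*, the beta chain, had 13, 0 and 1 against 8, 7 and 0, also with overlap.

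Genes of the same roles were taken from 8 lists with 128 genes in all, each counted once. Of these, 88 were tested and 11 (12.5%) passed, 7 higher and 4 lower, beside 8.11% of all genes, with a median log2 fold change of -0.08. None of 4 tested among 14 other apolipoproteins passed with limma, edgeR or DESeq2, and 1 of the 4 had an unadjusted p under 0.05. All 4 had a negative log2 fold change, with a median of -0.44. The 14 genes summed to 720 to 843 in Wt and 487 to 607 in mutant mice. Their mean log2(value + 0.5) overlapped, at 0.64 to 0.77 in Wt and 0.72 to 0.82 in mutant mice. *Apol6*, the most abundant of that list per kilobase, had 530, 375 and 360 in Wt mice against 395, 319 and 265 in mutant mice (log2 fold change -0.37 ± 0.21, adjusted p = 0.331, limma). Of 14 tested among 28 other plasma carriers, 1 passed: *Igfbp2*, which binds insulin-like growth factors, had 0.126, 0.389 and 0.926 in Wt and 5.87, 4.44 and 5.10 in mutant mice (2.60 ± 0.31, adjusted p = 0.00561, limma). With 3, 8 and 22 reads in Wt mice it passed the filter only through mutant mice, so the count of 1 is a description. *Selenop*, the selenium carrier and the most abundant of that list per kilobase, had a mean of 1195 ± 17.6 in Wt and 1335 ± 193 in mutant mice (SD, n = 3 each; adjusted p = 0.586, limma).

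In the *Serpina3* and *Serpina1* clade, 2 of 10 tested genes passed, both higher, beside 5.5% of all genes tested. *Serpina3k* had 0.67, 0.195 and 0.337 in Wt and 2.72, 2.24 and 1.59 in mutant mice (log2 fold change 1.59 ± 0.26, adjusted p = 0.0167, limma). *Serpina3m* had 1.84, 1.80 and 1.43 in Wt and 4.30, 4.17 and 3.42 in mutant mice (1.03 ± 0.16, adjusted p = 0.0144, limma), and these genes share 60 exonic bases. *Serpina3k* passed the filter only through mutant mice, and neither gene passed the test without Wt mouse 2, Wt mouse 3 or mutant mouse 2 (adjusted p of 0.0604 to 0.0769, limma). Both were far below *Serpina3n* per kilobase, and *Serpina3c*, the most abundant of the list on that scale, had a mean of 136 ± 21.7 in Wt and 168 ± 37.0 in mutant mice (SD, n = 3 each; adjusted p = 0.384, limma). Of 15 tested acute phase genes and regulators, none passed with limma, beside 8.11% of all genes tested. With edgeR none passed, with DESeq2 1 passed, and 4 had an unadjusted p under 0.05. *Orm1*, orosomucoid 1, a plasma carrier of drugs and the most abundant of that list per kilobase, had a mean of 103 ± 20.5 in Wt and 138 ± 34.1 in mutant mice (SD, n = 3 each; adjusted p = 0.291, limma).

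Among receptors for lipoproteins and carriers, 3 of 15 tested genes rose, *Lrp2* and *Tfrc* among them, beside 5.5% of all genes tested, and none fell (2.61% of all). *Lrp2* (megalin), which takes up carrier proteins in epithelia, had 0.209, 0.146 and 0.505 in Wt and 3.77, 2.69 and 2.25 in mutant mice (log2 fold change 2.12 ± 0.25, adjusted p = 0.00552, limma), and with 5, 3 and 12 reads in Wt mice it passed the filter only through mutant mice. *Tfrc*, the transferrin receptor, had 37.6, 44.2 and 33.5 in Wt and 81.0, 57.8 and 74.8 in mutant mice (0.88 ± 0.16, adjusted p = 0.0238, limma), but it did not pass without any 1 of the Wt mice or without mutant mouse 3 (adjusted p of 0.0513 to 0.0869). *Cd36*, a fatty acid and lipoprotein receptor, was the most abundant per kilobase and overlapped between genotypes (adjusted p = 0.534, limma).

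Of 16 tested iron-handling genes, *Tfrc* rose, beside 5.5% of all genes tested, and *Ftl1*, ferritin light chain, fell, beside 2.61%. *Ftl1* had 125, 106 and 114 in Wt and 65.9, 59.8 and 53.3 in mutant mice (log2 fold change -0.94 ± 0.11, adjusted p = 0.00489, limma). Its value is uncertain, as *Ftl1* has close copies in the genome and overlaps *Gm10252* on the other strand over 355 exonic bases. *Fth1*, ferritin heavy chain, had 1697, 1646 and 1649 in Wt and 1741, 1614 and 1486 in mutant mice (adjusted p = 0.866, limma). The transferrin receptor was higher beside a mean *Trf* value of 26.4 in Wt and 26.5 in mutant mice.

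In the list of the liver X receptor, its partners and its targets, 3 of 12 tested genes fell, beside 2.61% of all genes tested, and none rose (5.5% of all). *Srebf1*, a regulator of fatty acid synthesis, had 448, 343 and 339 in Wt and 251, 196 and 199 in mutant mice (log2 fold change -0.80 ± 0.16, adjusted p = 0.0304, limma), and it overlaps *Rai1* on the other strand over 109 exonic bases. It passed in only 1 of the 6 fits that left out a mouse, the one without mutant mouse 1 (adjusted p of 0.0614 to 0.119 in the others, limma). *Nr1h2*, the liver X receptor beta, had 91.0, 87.3 and 94.8 in Wt and 62.0, 63.6 and 62.7 in mutant mice (-0.53 ± 0.07, adjusted p = 0.00733, limma). *Rxrb*, a dimer partner of both the liver X and the thyroid hormone receptors, had 42.9, 46.1 and 49.1 in Wt and 29.1, 32.0 and 36.6 in mutant mice (-0.50 ± 0.11, adjusted p = 0.0432, limma). It passed in 1 of those 6 fits, without mutant mouse 3 (0.0718 to 0.15 in the others), and not under scaling by library size only (0.126), DESeq2 size factors (0.0549) or TMM (0.0554), nor without the filter (0.0538). *Pltp*, phospholipid transfer protein and the most abundant of the list per kilobase, had 320, 265 and 257 in Wt mice against 201, 180 and 138 in mutant mice, without overlap, and did not pass (-0.71 ± 0.16, adjusted p = 0.0507, limma). Of 13 tested lipases and lipid transfer genes, 1 rose, beside 5.5% of all genes tested. This gene, *Angptl8*, which regulates lipoprotein lipase, had 4.73, 3.40 and 3.66 in Wt and 12.5, 8.30 and 7.25 in mutant mice (1.13 ± 0.23, adjusted p = 0.0353, limma). It passed in 1 of the 6 fits that left out a mouse, without mutant mouse 1 (adjusted p of 0.0508 to 0.133 in the others, limma). *Lpl*, lipoprotein lipase itself, had 8158, 6234 and 5050 in Wt and 11844, 9261 and 7573 in mutant mice, with overlap (adjusted p = 0.428, limma).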

How the data were processed

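RNA-seq of iWAT from 3 Wt and 3 mutant mice was analysed, 1 library per mouse, grouped by the sample titles. The values deposited by the authors are a normalized signal per gene, a CPM with an added scaling factor per mouse (0.962 to 1.11). Per the submitters' processing notes Bowtie2 2.1.0, RSEM 1.2.15, edgeR and mm10 were used, and strand use is not given in the sources used here. Every value above 0 (100%) was a whole multiple of 1 read within 0.05 read, so the reads were recovered.

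Genes kept by filterByExpr of edgeR 4.0.16 were compared on log2(value + 0.5) by limma-trend (limma 3.58.1, R 4.3.3), with Benjamini-Hochberg adjustment over 16868 genes at an FDR of 0.05. The quasi-likelihood test of edgeR called 1250 genes on the recovered reads, of which 1238 were shared. Coordinates and exon lengths came from GENCODE M21 (GRCm38), which held 99.8% of the identifiers. Ratios of summed reads carry exact 95% intervals from reads pooled over the 3 mice of a genotype. These intervals cover counting error only and leave out the spread between mice. PCR copies are not independent molecules, so even the counting error may be understated. An exact permutation test of 3 against 3 mice cannot go below 0.1 and was not used.

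The 10 genes and all lists were chosen with earlier results of these data known. Genes named from a list are those past the FDR, up to 4 by size, and the most abundant per kilobase. The hepatocyte genes *Fga*, *Fgb*, *Fgg*, *Ahsg*, *Hnf4a* and *Cps1*, *Thra* and cluster neighbours were named in any case. Of the receptor list, 1 gene is not reported here. GTTAAT and scaling by TMM were added after the values were seen, and the hepatocyte sum without *Fgg* was not planned. Alternatives were pseudocounts of 0.1 and 1, no filter, other scalings, DESeq2 1.42.0, edgeR, a block for the mouse number and the omission of 1 mouse at a time. Scripts were tested on simulated data. Python 3.11.15, pandas 2.3.3, SciPy 1.17.1 and Matplotlib 3.10.9 were used.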

Additional observations from a re-analysis of the deposited data

How the results depend on the processing

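The number of the 10 genes past the FDR was 2 with limma and 2 or 3 under pseudocounts of 0.1 and 1, the other scalings and edgeR's quasi-likelihood test. It was 4 without a filter on low values (*Apoa1*, adjusted p = 0.0122, and *Ttr*, 0.0118, joined, limma), 4 with the Wald test of DESeq2 and 0 (without Wt mouse 2, Wt mouse 3 or mutant mouse 2) to 2 when 1 mouse was left out. Over all genes the count was 1368, with 2118 for DESeq2 and 554 (without Wt mouse 2) to 1005 (without mutant mouse 1) with 1 mouse left out. Of the 128 related genes 11 passed, with 17 for DESeq2 and 4 (without Wt mouse 2 or 3) to 11 with 1 mouse left out. The log2 fold change without 1 mouse was 1.02 to 1.44 for *Alb*, 0.94 to 1.29 for *Apod*, -0.133 to 0.184 for *Trf* and -0.0339 to 0.261 for *Apoc1*, so the last pair changed sign. No scaling moved the median of all genes by more than 0.1.

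Same-numbered mice are different animals, and their deviations from the group means correlated at 0.686, 0.0573 and 0.56, so the numbers were not taken as a pairing. Of the 6 mice, 4 correlated best with the mouse of their own number, a hint from the data and not from the design. With a replicate block 5 of the 10 genes, 4063 of all genes (1733 higher and 2330 lower, against 928 and 440 without it) and 30 related genes (14 higher and 16 lower, against 7 and 4) passed. Depth limits *Ttr*, *Apoa1* and *Apoa2*, which had 0 to 3 reads per Wt mouse. The causes of these shifts were not tested. Nothing says whether mice shared a cage or litter. The p-values and SEs of limma combine the spread of a gene between these 6 mice with a trend of the spread over all genes.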

Other observations

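The mice of a genotype took similar positions across the 10 genes. Wt mouse 1 was the highest Wt mouse for 7 of the 10, mutant mouse 1 was the highest mutant mouse for 8, and mutant mouse 3 the lowest for 9. *Apoe* departed from this among Wt mice, with its highest value in Wt mouse 3. The genes share libraries and scaling, so these positions are a description.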
